A study of Mus musculus with 6 samples.

Results

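The circadian clock genes described here are Per1, Per2, Per3, Cry1, Cry2, Nr1d1, Nr1d2, Dbp, Tef and Clock, chosen by gene symbol from a table of raw read counts. All 10 had a row among the 23491 symbols of the table, and all 10 passed the filter on low counts that left 14727 genes for testing. RNA was measured in microglia, the resident macrophages of the brain, from the cerebellum of mice labelled Fmr1 knock out, a model of fragile X syndrome. The mice had received poly(I:C), a synthetic double-stranded RNA that imitates a viral infection, by intraperitoneal injection (3 libraries), or saline (3 libraries, titled sham). Every library in both groups carries the Fmr1 knock out label, and no wild-type group was analysed here. The labels give no age, dose, time after injection or time of day at collection. Collection time may matter for clock genes, and its part in any difference cannot be told apart from treatment with these labels. They also do not say whether replicates were separate animals, so p-values measure the spread between these libraries, which may be technical. Markers of microglia were abundant in every library, with P2ry12 at 1883 to 2606 CPM (counts relative to the library total) in poly(I:C) and 2453 to 2995 CPM in saline. The cells were enriched with beads against CD11b, which neutrophils and other myeloid cells also carry. All 13 neutrophil markers had log2 fold changes below 0 and 9 of 10 choroid plexus markers above 0. In edgeR 0 were called in either list, against 0.957% of all tested genes. At an unadjusted p under 0.05 in edgeR there were 11 of the 13 and 9 of the 10, against 21.3% of all tested genes. The groups therefore may differ in their share of these cells. Summed markers of lymphocytes, monocytes and border macrophages, blood vessels, neurons, astrocytes, oligodendrocytes and red blood cells reached at most 1207 CPM in any library. No marker of the neutrophil or choroid plexus list was at 0. All 5 red blood cell markers were lower at an unadjusted p under 0.05 in edgeR, with 0 called, so that share may differ too. Their sum was 122, 444 and 52.9 CPM in saline replicates 1 to 3, against 23.8 to 45.1 CPM in poly(I:C).

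The mammalian clock is a feedback loop of transcription. CLOCK pairs with BMAL1, binds E-box sequences and switches on the Per and Cry genes, whose proteins return to the nucleus and block that pair. The same pair activates Nr1d1 and Nr1d2, whose products (REV-ERB alpha and beta) repress Bmal1, and activates the output factors Dbp and Tef, which bind D-box sequences. Macrophages and microglia of mice are known to hold such clocks, and in macrophages the loop is known to gate inflammatory responses.

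Promoters are shown for the 4 members in which the letters of an E-box (CACGTG) or a D-box (TTATGTAA) were found. CLOCK with BMAL1 binds the former element, and DBP and TEF bind the latter. RefSeq promoter windows of build GRCm38.p6 were matched by symbol for 9 of the 10 members. Per2 had no entry. The 250 bases before each annotated start were searched on both strands, and the lines below run 5′ to 3′ along the gene's strand with E-boxes or D-boxes in capitals.
Per1, chr11:69098699-69098948, plus strand: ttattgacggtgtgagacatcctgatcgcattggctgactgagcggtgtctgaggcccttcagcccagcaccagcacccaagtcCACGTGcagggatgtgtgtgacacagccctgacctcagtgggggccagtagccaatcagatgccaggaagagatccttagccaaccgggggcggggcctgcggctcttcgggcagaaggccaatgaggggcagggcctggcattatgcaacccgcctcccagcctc
Per3, chr4:151044666-151044915, minus strand: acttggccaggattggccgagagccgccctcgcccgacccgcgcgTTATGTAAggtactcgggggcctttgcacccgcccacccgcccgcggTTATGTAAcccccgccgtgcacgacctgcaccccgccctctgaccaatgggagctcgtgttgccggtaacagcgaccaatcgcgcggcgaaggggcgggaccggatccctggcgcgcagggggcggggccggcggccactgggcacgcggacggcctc
Cry1, chr10:85185055-85185304, minus strand: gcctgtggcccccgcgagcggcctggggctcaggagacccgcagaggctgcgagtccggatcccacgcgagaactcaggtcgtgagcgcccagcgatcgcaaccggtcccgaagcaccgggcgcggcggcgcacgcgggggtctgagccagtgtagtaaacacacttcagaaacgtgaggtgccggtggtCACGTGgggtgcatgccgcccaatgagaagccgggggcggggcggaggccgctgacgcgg
Tef, chr15:81802423-81802672, plus strand: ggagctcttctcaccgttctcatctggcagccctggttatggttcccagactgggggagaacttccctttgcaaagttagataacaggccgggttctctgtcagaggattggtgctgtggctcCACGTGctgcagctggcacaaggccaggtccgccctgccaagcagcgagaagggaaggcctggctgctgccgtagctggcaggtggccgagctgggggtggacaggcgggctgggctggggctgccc
The E-box began 166 bases before the start of Per1, 60 before that of Cry1 and 127 before that of Tef. A second annotated start of Tef had an E-box at 138 bases before it. Per3 held a pair of D-boxes, at 205 and 158 bases before its start. The 9 matched members had 13 windows, since some have more than 1 annotated start. An E-box was present in 4 of the 13, belonging to 3 members, and a second window of Per1 held none. Of all 32851 RefSeq windows of the same length, 6.02% held CACGTG. The D-box letters were found in 0.819% of all windows. The REV-ERB and ROR core TAGGTCA (2.23% of all windows) and the cyclic AMP element TGACGTCA (1.55%) were in windows of 0 of the 9. These are matches of letters only, and elements lying outside these windows were not searched.

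None of the 10 clock genes passed the test between poly(I:C) and saline in edgeR's quasi-likelihood test (adjusted p between 0.218 and 0.766). Of all tested genes, 0.957% were called, of which 130 were higher (0.883%) and 11 lower (0.0747%). At an unadjusted p under 0.05 there was 1 member, Per3, against 21.3% of all tested genes. DESeq2 called 0 members, against 577 higher and 566 lower among all 14727 genes in its fit. limma-voom with quality weights called 1 member, Per3, against 1268 higher and 1608 lower among the same number of genes. The log2 fold change was below 0 for 9 members and above 0 for Clock alone, with a median of −0.36 over the members and 0.0098 over all tested genes. The 95% interval of the fold change left out a 2-fold increase for all 10 members. It left out a 2-fold decrease for 6 of them, and for Per3, Cry1, Dbp and Tef a decrease of that size lay inside it. In bulk RNA, fewer cells of a type and less RNA per cell cannot be told apart. In the same libraries the interferon response was large: the log2 fold change of Xaf1, which interferon induces, was 2.96 (SE 0.08, edgeR adjusted p = 4.56e-05).

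**Figure D1:**
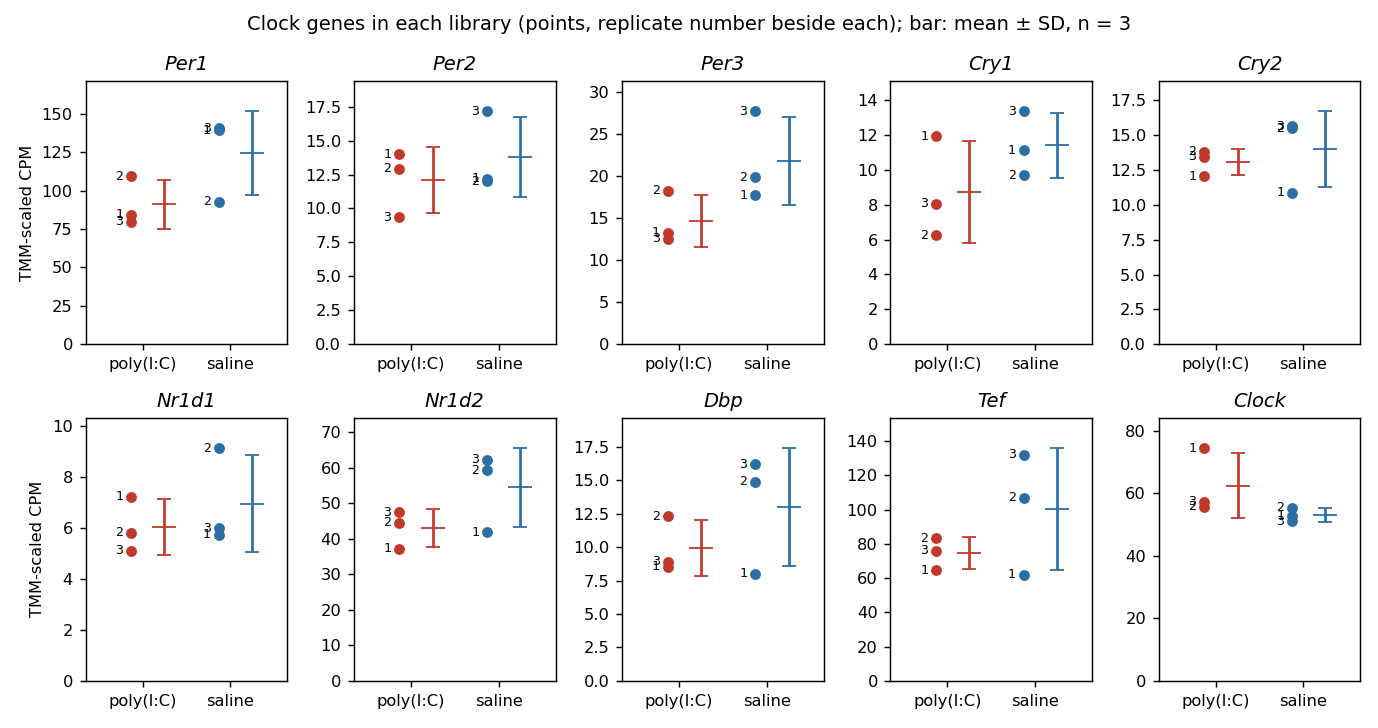
TMM-scaled CPM (read counts relative to the library total, vertical axes, each starting at 0) of the 10 clock genes in poly(I:C) and saline libraries; each point is a library with its replicate number, and bars give mean ± SD (n = 3). The groups overlap for every gene except Clock, whose lowest poly(I:C) library (55.7 CPM) lies just above its highest saline library (55.4 CPM).

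CLOCK is the activating arm's histone acetyltransferase and DNA-binding partner. Clock stood at 74.5, 55.7 and 57.3 CPM (TMM-scaled) in poly(I:C) replicates 1 to 3, against 52.9, 55.4 and 51.1 CPM in saline replicates 1 to 3. The groups did not overlap, but only poly(I:C) replicate 1 stood clearly above the saline range, and 28.4% of all tested genes were apart, 14.0% in the higher direction. Clock had a log2 fold change of 0.23 (SE 0.13, 95% interval −0.067 to 0.54, edgeR adjusted p = 0.311). Without poly(I:C) replicate 1 it was 0.11. That library also had the highest summed level of 10 choroid plexus markers, 19390 CPM, against 7654 and 9318 CPM in the other poly(I:C) libraries and 3976 to 8512 CPM in saline libraries, with Ttr at 11110 CPM. The part of choroid plexus RNA in the Clock value was not tested.

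Bmal1, which encodes the partner of CLOCK and is not among the 10, had 22.3, 21.7 and 23.6 CPM in poly(I:C) libraries and 19.9, 19.1 and 19.4 CPM in saline libraries. The groups were apart and the spread within each was small, with means of 22.5 ± 0.99 and 19.5 ± 0.39 CPM (SD, n = 3 each). The log2 fold change of 0.21 (SE 0.10) did not pass in edgeR (adjusted p = 0.258), and it ranged from 0.17 to 0.29 over all alternatives. limma-voom with quality weights called it (log2 0.27, adjusted p = 0.0464). Npas2, which can stand in for Clock, was near the lower limit of these data, at 0.97, 0.089 and 0.37 CPM in poly(I:C) libraries and 0.15, 1.36 and 0.088 CPM in saline libraries.

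The Period genes encode the repressors whose build-up and decay time the loop. Per1, which is also induced quickly by stress hormones and by cyclic AMP, had 84.3, 109 and 79.8 CPM in poly(I:C) libraries, against 139, 92.7 and 141 CPM in saline libraries. Saline replicate 2 lay between the poly(I:C) values, so the groups overlapped. For Per1 this gave a log2 fold change of −0.45 (SE 0.19, 95% interval −0.91 to 0.013, edgeR adjusted p = 0.241). Without saline replicate 2 it was −0.62 (adjusted p = 0.210), and without saline replicate 3 it was −0.35 (adjusted p = 0.499). These were the ends of its range with 1 library left out in turn. Per3 had 13.2, 18.2 and 12.6 CPM in poly(I:C) libraries, against 17.7, 19.8 and 27.7 CPM in saline libraries. Only poly(I:C) replicate 2 reached into the saline range, by exceeding saline replicate 1. Per3 had the largest difference of the members, a log2 fold change of −0.57 (SE 0.22, 95% interval −1.09 to −0.040), with an unadjusted p of 0.0384 and an adjusted p of 0.218 in edgeR. Without saline replicate 3, its highest library, the log2 fold change of Per3 was −0.36. Per2 had 14.0, 12.9 and 9.37 CPM in poly(I:C) libraries, against 12.2, 12.01 and 17.2 CPM in saline libraries. Its 2 groups differed mainly by saline replicate 3, and the log2 fold change of −0.19 (SE 0.22, adjusted p = 0.622 in edgeR) was −0.0028 without that library and −0.036 without poly(I:C) replicate 3.

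The cryptochromes are the stronger repressors of the CLOCK and BMAL1 pair. Cry1 had 11.9, 6.24 and 8.05 CPM in poly(I:C) libraries, against 11.1, 9.70 and 13.3 CPM in saline libraries. Poly(I:C) replicate 1 lay within the saline range and the other poly(I:C) libraries below it. The log2 fold change was −0.38 (SE 0.27, edgeR adjusted p = 0.417), moving to −0.65 when poly(I:C) replicate 1 was left out and to −0.19 when it was poly(I:C) replicate 2. Cry2 had 12.05, 13.8 and 13.4 CPM in poly(I:C) libraries, against 10.9, 15.5 and 15.6 CPM in saline libraries. All poly(I:C) values lay inside the saline range. Its log2 fold change of −0.096 (SE 0.18, 95% interval −0.52 to 0.33, edgeR adjusted p = 0.766) was the smallest of the members, and it ranged from −0.25 to −0.012 with 1 library left out in turn. Exons of Cry2 overlap those of D930015M05Rik, on the opposite strand, over 295 bases in GENCODE M21.

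Nr1d1 and Nr1d2 encode heme-binding nuclear receptors that repress Bmal1 and, in mouse macrophages, inflammatory genes. Nr1d2 had 37.2, 44.6 and 47.5 CPM in poly(I:C) libraries, against 41.8, 59.4 and 62.3 CPM in saline libraries. Saline replicate 1 lay among the poly(I:C) values, while the other saline libraries were above all of them. Its log2 fold change was −0.34 (SE 0.17, edgeR adjusted p = 0.290), and it was −0.50 without saline replicate 1 (adjusted p = 0.194) and −0.22 without poly(I:C) replicate 1 (adjusted p = 0.597). Nr1d1 was the least counted member, with 254, 196 and 177 counts in poly(I:C) libraries and 188, 316 and 203 counts in saline libraries. Scaled, these were 7.22, 5.79 and 5.09 CPM in poly(I:C), against 5.72, 9.12 and 5.98 CPM in saline, and saline replicate 2 alone was above the poly(I:C) range. Its log2 fold change of −0.20 (SE 0.26, edgeR adjusted p = 0.660) turned to 0.041 without saline replicate 2. Exons of Nr1d1 overlap those of Thra on the opposite strand over 263 bases in the GENCODE M21 annotation, and with counts that do not mark strand such reads cannot be assigned with certainty.

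Dbp and Tef belong, with Hlf, to the PAR bZIP family of D-box activators, whose transcripts follow the CLOCK and BMAL1 pair closely in many mouse tissues. Tef had 64.6, 83.4 and 76.0 CPM in poly(I:C) libraries, against 61.9, 107 and 132 CPM in saline libraries. Dbp had 8.55, 12.3 and 8.91 CPM in poly(I:C) libraries, against 7.999, 14.9 and 16.2 CPM in saline libraries. In both genes saline replicate 1 was the lowest of all 6 libraries, and the other saline libraries were above every poly(I:C) library. The log2 fold changes were −0.43 (SE 0.26) for Tef and −0.39 (SE 0.30) for Dbp, with edgeR adjusted p of 0.361 and 0.449. Without saline replicate 3, the highest library for both, they were −0.18 for Tef (adjusted p = 0.744) and −0.21 for Dbp (adjusted p = 0.782). Exons of Dbp overlap those of Sphk2 over 539 bases and exons of Tef overlap those of an antisense gene, Gm17597, over 193 bases, both on the opposite strand in GENCODE M21.

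Hlf, from the list of other clock-pathway genes, had 9.32, 24.8 and 20.4 CPM in poly(I:C) libraries, against 26.1, 40.4 and 41.3 CPM in saline libraries. Its groups were apart, as in 14.3% of all tested genes that were apart and lower. Hlf had a log2 fold change of −0.99 (SE 0.36), larger than that of its relatives Dbp and Tef, although the difference between these genes was not tested. It missed the threshold in edgeR (adjusted p = 0.204), and was called by limma-voom with quality weights (adjusted p = 0.0207). Without poly(I:C) replicate 1, the lowest library, the log2 fold change was −0.65. With replicate 1 of both groups left out together, edgeR called Hlf (log2 −0.83, adjusted p = 0.0195). Leaving out only 1 of these libraries did not give a call in edgeR. The adjusted p was 0.226 without saline replicate 1 and 0.315 without poly(I:C) replicate 1.

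Saline replicate 1 set much of the spread in Tef, Dbp, Nr1d2 and Cry2. Without it the log2 fold changes were −0.68 for Tef (SE 0.16, adjusted p = 0.138), −0.65 for Dbp (SE 0.22, adjusted p = 0.235), −0.50 for Nr1d2 (SE 0.15) and −0.70 for Per3 (SE 0.23) in edgeR. Tef, Dbp, Nr1d2 and Per3, 4 of the members, then had an unadjusted p under 0.05, all in the lower direction. Of all genes tested in that fit, 7.75% were lower at that level and 17.3% passed it in either direction. Cry2 did not pass it (log2 −0.25, SE 0.16, unadjusted p = 0.154). Of the 10 members 0 were called in that fit, against 1.21% of all genes, and the adjusted p of Tef was the smallest. Per1 moved the other way there, to −0.36 (SE 0.22, adjusted p = 0.406) from −0.45 with all libraries. Saline replicate 1 also had a summed level of 13 neutrophil markers of 22000 CPM, where saline replicates 2 and 3 had 3755 and 3717 CPM and the poly(I:C) libraries 1800 to 3191 CPM, with S100a9 at 6679 CPM. The part of neutrophil RNA in these values was not tested. Its summed level of 12 microglial markers, 40960 CPM, was within the range of the other libraries (32200 to 47130 CPM). A further fit left out replicate 1 of both groups together and kept only replicates 2 and 3 of each. Its log2 fold changes were −0.56 for Tef (SE 0.12, adjusted p = 0.0524), −0.38 for Nr1d2 (SE 0.09, adjusted p = 0.0772) and −0.67 for Cry1 (SE 0.23, adjusted p = 0.173) in edgeR. In that fit 5 members had an unadjusted p under 0.05, against 20.2% of all genes tested, and 0 were called. Per1 again moved the other way, to −0.28 (SE 0.22, adjusted p = 0.518).

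**Figure D2:**
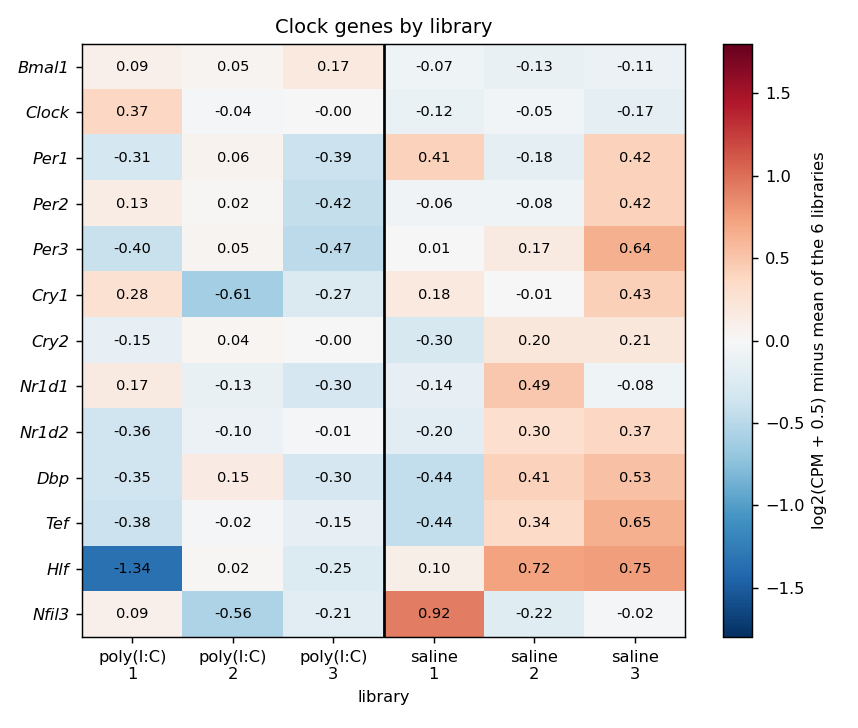
Each cell gives a gene's log2(CPM + 0.5) minus its mean over the 6 libraries, for 10 clock genes with Bmal1, Hlf and Nfil3, with poly(I:C) libraries left of the line and saline libraries right of it. Dbp and Tef stand at −0.44 in saline replicate 1 and between 0.34 and 0.65 in saline replicates 2 and 3, while Bmal1 varies little within a group.

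**Figure D3:**
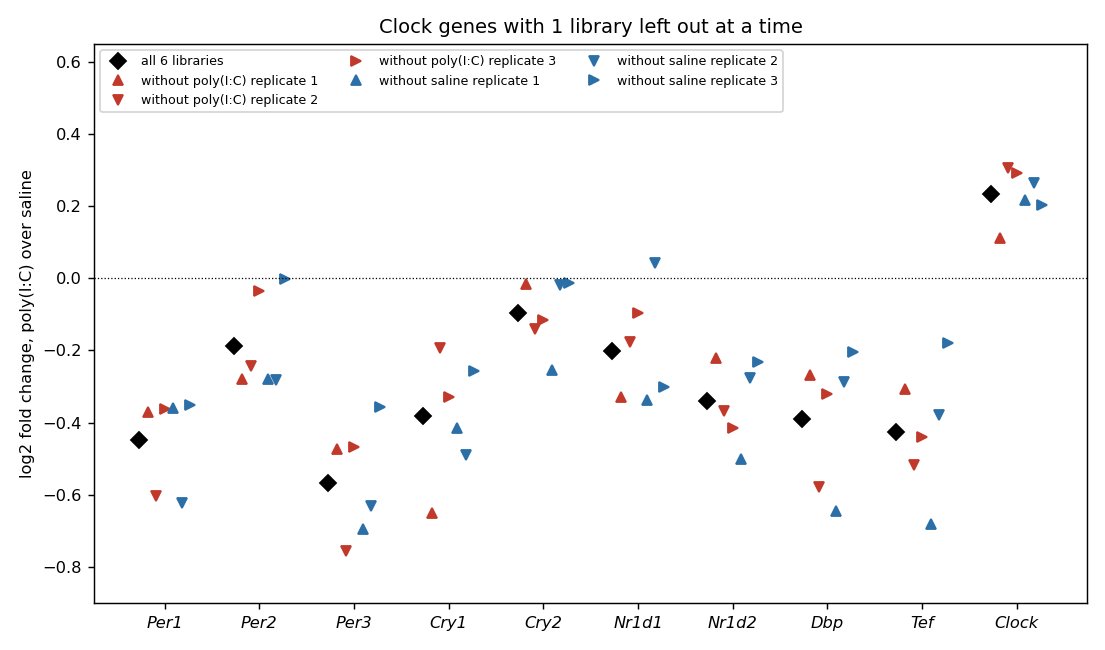
Log2 fold change of each clock gene (vertical axis, poly(I:C) over saline) with all 6 libraries (black diamonds) and with each library left out in turn (triangles, red for poly(I:C) and blue for saline). Clock stays above 0 and 8 members stay below it in all 6 such fits, and Nr1d1 reaches 0.041 without saline replicate 2.

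As a description, Bmal1 counts were divided within each library by those of a gene that CLOCK and BMAL1 activate. Such a ratio needs no scaling between libraries. What it says of the balance between the arms of the loop was not tested. The ratio of Bmal1 to Per3 was 1.69, 1.19 and 1.88 in poly(I:C) libraries, against 1.12, 0.964 and 0.702 in saline libraries. The ratio of Bmal1 to Nr1d2 was 0.600, 0.486 and 0.498 in poly(I:C) libraries, against 0.476, 0.322 and 0.312 in saline libraries. These ratios did not overlap between groups. The same held in the higher direction for 2 of the 7 activated members (Per1, Per2, Per3, Nr1d1, Nr1d2, Dbp and Tef) and for 32.7% of all other tested genes, so the share among the members was near that of genes in general. These ratios were chosen after the values were seen.

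Levels of different genes were compared per kilobase of exon, from GENCODE M21 exon lengths, which may not be those the authors counted on. In poly(I:C) libraries the order was Per1 (16.2 CPM per kb), Tef (9.49), Nr1d2 (7.97), Clock (4.55), Dbp (3.32), Cry1 (2.62), Cry2 (2.07), Per2 (2.07), Nr1d1 (1.96) and Per3 (1.53), all as mean CPM per kb. In saline libraries the mean level was again highest for Per1 (22.1 CPM per kb), Tef (12.8) and Nr1d2 (10.1), followed by Dbp (4.35), Clock (3.87), Cry1 (3.41), Per2 (2.36), Per3 (2.26), Nr1d1 (2.26) and Cry2 (2.21). Ranges of neighbours in this order overlapped except between Per1 and Tef and between Nr1d2 and Clock in poly(I:C), and between Nr1d2 and Dbp in saline. Per1, Tef and Nr1d2 therefore led the members in both groups. Clock lay wholly above Cry2, Per2, Nr1d1 and Per3 as well, with a lowest library of 4.06 CPM per kb in poly(I:C) and 3.72 CPM per kb in saline, where those 4 genes reached at most 2.39 and 2.96 CPM per kb. Bmal1 stood at 3.00 ± 0.13 CPM per kb in poly(I:C) and 2.59 ± 0.052 CPM per kb in saline (SD, n = 3 each).

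Of 38 symbols listed for the rest of the clock pathway, older and newer names included, 35 had a row and 34 were tested. In edgeR 0 of the 34 were called, against 0.957% of all tested genes, and 7 had an unadjusted p under 0.05, against 21.3%. The list had 17 log2 fold changes above 0 and 17 below, with a median of −0.0016. The groups were apart for 8 of its genes, 4 in each direction, against 28.4% of all tested genes (14.0% higher and 14.3% lower), so the list did not stand out by this count. limma-voom with quality weights called 7 of the list, namely Nampt, Timeless, Bmal1, Hlf, Csnk1d, Csnk1e and Usp2. Of all 14727 genes in that fit it called 1268 higher and 1608 lower, so a call there was common.

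Nampt, the rate-limiting enzyme of NAD salvage and a rhythmic target of CLOCK in mouse liver, had the smallest p of the list. It stood at 143, 89.9 and 120 CPM in poly(I:C) libraries, against 65.1, 51.6 and 49.1 CPM in saline libraries, with every poly(I:C) library above every saline one. The log2 fold change of 1.09 (SE 0.19) had an adjusted p of 0.0641 in edgeR and passed in DESeq2 (log2 1.06, adjusted p = 7.24e-06) and in limma-voom with quality weights (adjusted p = 0.00200). With 1 library left out in turn, the edgeR adjusted p ranged from 0.0340 to 0.301, passing with saline replicate 1 absent (0.0340) and with poly(I:C) replicate 2 absent (0.0402).

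Timeless, named for a fly clock gene and known in mammals mainly for work at replication forks, had the largest difference. It stood at 33.2, 20.7 and 20.0 CPM in poly(I:C) libraries, against 11.0, 4.39 and 3.80 CPM in saline libraries. The groups were apart, and saline replicate 1 was the highest saline library. The log2 fold change was 1.94 (SE 0.45, edgeR adjusted p = 0.120), and without saline replicate 1 it was 2.57 (SE 0.26, adjusted p = 0.00692). DESeq2 (adjusted p = 3.23e-04) and limma-voom with quality weights (adjusted p = 0.00647) called it with all libraries. Exons of Timeless overlap those of Gm26847 over 111 bases in GENCODE M21, so some reads cannot be assigned with certainty.

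**Figure D4:**
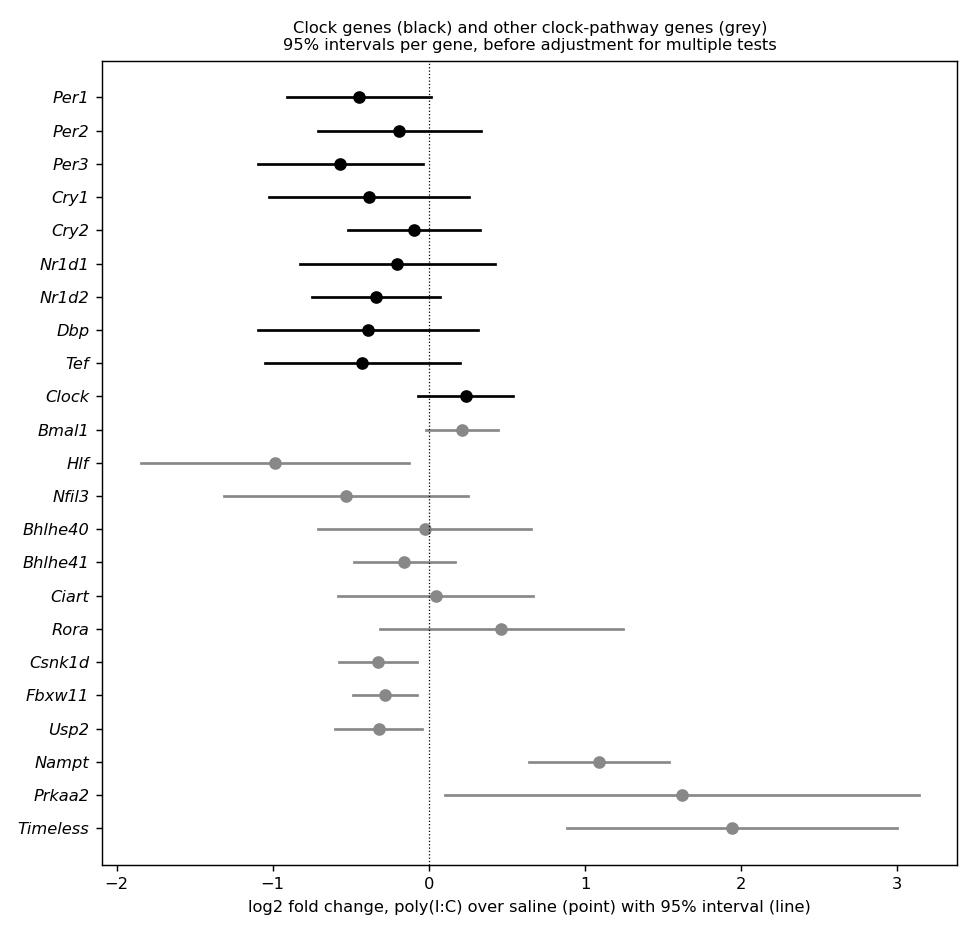
Log2 fold change of poly(I:C) over saline (points) with 95% intervals before adjustment for multiple tests (lines), for the 10 clock genes (black) and 13 other clock-pathway genes (grey). Among the clock genes the interval of Per3 alone leaves out 0, and Nampt and Timeless lie to the right of 0 at 1.09 and 1.94.

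No gene listed for post-translational control of the clock was called in edgeR, while limma-voom with quality weights called the kinase genes Csnk1d (adjusted p = 0.0255) and Csnk1e (0.0333) and the gene Usp2 (0.0248), all lower. Csnk1d, a kinase that phosphorylates PER proteins, stood at 212 ± 22.3 CPM in poly(I:C) and 266 ± 17.9 CPM in saline (SD, n = 3 each), which gave a log2 value of −0.33 for the fold change (SE 0.10, edgeR adjusted p = 0.179). Fbxw11, an F-box protein that targets phosphorylated PER for degradation, stood at 108 ± 9.55 and 131 ± 3.77 CPM, or −0.28 as a log2 fold change (SE 0.09, adjusted p = 0.172 in edgeR). Usp2, a deubiquitinase whose transcript is rhythmic, had a log2 fold change of −0.32 (SE 0.12, edgeR adjusted p = 0.202). In these 3 genes every poly(I:C) library was below every saline library. Prkaa2, a catalytic subunit of the energy sensor AMPK that acts on CRY1 in mice, stood at 13.1, 4.23 and 6.01 CPM in poly(I:C), against 1.16, 4.71 and 1.71 CPM in saline, and its groups overlapped (log2 1.62, SE 0.64, edgeR adjusted p = 0.219). With 1 library left out in turn the log2 fold change of Prkaa2 ranged from 1.04 to 2.43.

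Other transcriptional regulators of the loop named here were not called in edgeR either. Nfil3, the repressor that competes with DBP and TEF for D-boxes, stood at 22.2, 14.0 and 18.0 CPM in poly(I:C) libraries, against 39.9, 17.9 and 20.5 CPM in saline libraries. Its high value was in saline replicate 1, which had the highest neutrophil marker sum, and the log2 fold change was −0.53 (SE 0.33, edgeR adjusted p = 0.365). Without that library it was −0.10 (adjusted p = 0.786). Bhlhe41, an E-box repressor, was the more abundant of the DEC pair per kilobase, with a mean of 33.2 ± 2.74 CPM per kb in poly(I:C) and 37.0 ± 6.00 CPM per kb in saline (SD, n = 3 each). Its relative Bhlhe40 stood at 2.33 ± 0.72 and 2.38 ± 0.57 CPM per kb in those groups. Their log2 fold changes were −0.16 (SE 0.14) and −0.027 (SE 0.29), at edgeR adjusted p of 0.503 and 0.963. Rora, which activates Bmal1, stood at 9.21, 4.02 and 5.52 CPM in poly(I:C) and 4.47, 4.24 and 4.89 CPM in saline, with its highest value in poly(I:C) replicate 1 (log2 0.46, SE 0.33, edgeR adjusted p = 0.420). The log2 fold change of Rora was 0.095 without that library (adjusted p = 0.885). Ciart, a repressor of the CLOCK and BMAL1 pair, stood at 4.54 ± 0.99 and 4.40 ± 0.79 CPM (adjusted p = 0.935 in edgeR).

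Because Per1 is also a target of the glucocorticoid receptor and an immediate early gene, lists of such genes are given beside it. Of 18 glucocorticoid-responsive genes, Per1 included, 1 was called in edgeR and it was lower, against 0.957% of all tested genes called in either direction. At an unadjusted p under 0.05 there were 7 of the 18, against 21.3% of all tested genes, with values on both sides of 0. This was Ddit4, an inhibitor of mTOR signalling, which fell to 52.1 ± 16.4 CPM in poly(I:C), against 197 ± 36.3 CPM in saline (log2 −1.92, SE 0.24, adjusted p = 0.0183). The log2 fold changes of Tsc22d3, which encodes the anti-inflammatory protein GILZ, and of the kinase gene Sgk1 were −0.84 and −0.54 (SE 0.16 and 0.15), at edgeR adjusted p of 0.0806 and 0.153. In the other direction, and named after their values were seen, Fkbp5, a co-chaperone of the glucocorticoid receptor, and the metallothionein gene Mt2 had log2 fold changes of 0.63 and 1.12 (SE 0.21 and 0.32), at edgeR adjusted p of 0.181 and 0.162. The groups were apart for both, and for 4 genes of the list in the lower direction. Of all tested genes, 14.0% were apart and higher and 14.3% apart and lower. The list as a whole had 8 genes above 0 and 10 below, with a median log2 fold change of −0.092. Of 14 immediate early genes 0 were called in edgeR and 1 had an unadjusted p under 0.05, Klf2 (log2 −0.53, SE 0.15, adjusted p = 0.161). Jun and Junb had log2 fold changes of −0.29 and −0.32. The immediate early list had 11 genes below 0 and 3 above, with a median of −0.18. Those above were Fosb, Egr1 and Egr2, at 0.23, 0.27 and 0.39. The type I interferon list, by contrast, had 14 of 15 members called, all higher, with Rtp4 at a log2 fold change of 3.37 and Bst2 at 2.45.

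Outside these lists, the genes closest in pattern to the mean of the 7 activated members were found among 10210 genes at a mean of at least 5 CPM. Closeness was the root mean square difference of centred log2(CPM + 0.5) over the 6 libraries. The 5 nearest were Sipa1l3 (0.050), Gtf2ird2 (0.056), Mmgt2 (0.056), Mmp11 (0.064) and Rgl3 (0.064), each as a difference in log2 units. Sipa1l3, for example, had 38.2, 46.1 and 35.3 CPM in poly(I:C) libraries, against 44.5, 53.1 and 61.6 CPM in saline libraries. Nearest to Dbp alone were Slc27a3 (0.12), Clgn (0.13), Fignl2 (0.13), Ajuba (0.14) and Prkce (0.14). With 6 libraries and so many genes such closeness is a description only.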

How the data were processed

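The deposited table holds whole-number read counts, unnormalised, with gene symbols as rows and a column for each library. Per the submitters' processing notes fastp, HISAT2 and HTSeq were used with build GRCm39. The sources used here give no versions, annotation or strand setting. Per the labels' protocols, cells were enriched with CD11b beads and libraries came from SMARTer-amplified cDNA and Nextera XT, without mention of molecular identifiers, so floors and counts cover counting error only. Library totals ranged from 33710545 to 34899835 counts.

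From the counts, edgeR 4.0.16 in R 4.3.3 was run on all 6 libraries: filterByExpr within groups, TMM scaling, and the quasi-likelihood F test with no covariate, with Benjamini-Hochberg adjustment over all 14727 tested genes and calls at an adjusted p under 0.05. Each standard error was computed as the size of the log2 fold change over the square root of F, and 95% intervals use the test's degrees of freedom. Alternatives included DESeq2 1.42.0 and limma 3.58.1 (voom with quality weights), other scalings and filters, a replicate block, and leaving out libraries. Replicates of a group differed beyond counting noise (chi-square per gene 21.2 to 113). Scripts were tested on simulated counts.

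The members and gene lists were chosen with earlier results of these data known. Named genes were the members; of the pathway list the 8 with the smallest p and a fixed set of regulators; the 5 nearest in pattern; and the 3 with the smallest p of each context list. A few genes of these lists are not reported here. Promoters are from RefSeq (GRCm38.p6) and exon lengths from GENCODE M21.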

Additional observations from a re-analysis of the deposited data

How the results depend on the processing

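Over 15 alternatives the 10 clock genes kept their direction and their side of the threshold in 148 of 150 values. The exceptions were Per3 under limma-voom with quality weights (log2 −0.82, adjusted p = 0.0221), which made the count of called members 1, and Nr1d1 without saline replicate 2 (log2 0.041, with a range of −0.45 to 0.041 over the fits that left out libraries). The cause was not tested. Leaving out 1 library in turn gave 0 called members each time. The count of called genes among the other clock-pathway genes was 0 with all libraries. It was 1 with upper-quartile scaling, total counts only and no filter (Nampt), and 2 under DESeq2 and the replicate block (Nampt and Timeless). It was 7 under limma-voom, and 3 with replicate 1 of both groups left out together. It was between 0 and 2 when 1 library was left out. The counts of all genes called, 130 higher and 11 lower, were 577 and 566 under DESeq2 and 1268 and 1608 under limma-voom. With replicate 1 of both groups left out together they were 355 and 214. Upper-quartile scaling gave 167 higher and 10 lower, and total counts only gave 155 and 10. With no filter they were 147 and 18 of 22153 genes, and with the replicate block 171 and 89. With 1 library left out the counts ranged from 51 to 167 higher and from 0 to 20 lower. Whether libraries with the same replicate number shared a batch or were paired was not tested. Deviations of same-numbered libraries correlated at 0.29, 0.049 and 0.36 across 10672 genes. Not every library correlated best with its own number: poly(I:C) replicate 2 did so with saline replicate 3 (0.42). The block called 0 members. Scaling by total counts moved the median of all genes to 0.085 (log2), against 0.0098. Each member had at least 177 counts in every library, so the limit of 3 counts (0.0852 to 0.0912 CPM) bears on Npas2 alone of the named genes.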
